A study of Mus musculus with 18 samples.

Results

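Among 1331 thymocytes of 6 mixed bone marrow chimeras, 551 carried neither coreceptor by antibody, and 150 of these double-negative cells formed the population described here. They were chosen by counts from the same files: a scaled antibody value of at most 6.3 for CD4 and at most 6.1 for CD8A, on the scale log2(1 + count × median antibody total / antibody total of the cell), and at least 3 RNA UMIs (unique molecular identifiers, 1 per captured transcript) summed over S100a6, S100a4 and Ly6c1. The other 401 double-negative cells were the main comparison, and CD8 single-positive cells of the same mice were the second. Donor marrow (30%) from OT1 or OT2 mice, both CD45.1.2, had been mixed with 70% CD45.1 competitor marrow, and donor thymocytes were sorted 6 weeks later, at 14 weeks of age, as CD44 low, Va2 positive and Vb5 positive cells. OT1 and OT2 are transgenic alpha beta T cell receptors for ovalbumin, restricted by MHC class I and class II in turn.

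Each receptor met 3 kinds of host, with 1 unpooled mouse each. The OT1 NegSelected and OT2 NegSelected hosts were RIPmOVA mice, which express membrane-bound ovalbumin from the rat insulin promoter. The OT1 PosSelected and OT2 PosSelected hosts were wild-type C57BL6/Ncr mice. The OT1 NoSelection host was a b2m KO mouse and the OT2 NoSelection host an MHCII KO mouse, both on B6.Ly5.1/Ncr. All hosts also received the same kind of competitor marrow. All cells shared 1 droplet lane and were tied to mice by hashtags, and no barcode occurred more than once. Nothing here replicates a host within a receptor, so p-values below measure the spread between 3 OT1 mice that differ in host.

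Most thymocytes without coreceptors are early progenitors, gamma delta T cells or mature cells that never gained or have lost a coreceptor. In mice, alpha beta receptor transgenes are expressed earlier than a rearranged receptor would be and are known to give double-negative cells with features of gamma delta lineage cells. S100a6 and S100a4 encode small EF-hand calcium-binding proteins of migratory and effector lymphocytes, and Ly6c1 encodes a GPI-anchored surface protein of mature and memory-type T cells. Late in thymic maturation the transcription factor Klf2 switches on S1pr1, the sphingosine-1-phosphate receptor with which thymocytes leave the thymus.

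The tags below are the 15-base barcodes by which the antibodies were counted. They are shown because the first 2 defined the double negatives and the other 2 mark the surface proteins to which the results return.
CD4: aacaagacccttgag
CD8A: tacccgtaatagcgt
Ly6C (1 antibody for LY6C1 and LY6C2): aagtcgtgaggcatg
SCA1, the product of Ly6a: ttcctttcctacgca

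The 3 genes of the gate lie at 2 places in the mouse genome (RefSeq, GRCm38.p6). S100a4 (chr3:90603770-90606045) and S100a6 (chr3:90612894-90614414) are neighbours on the plus strand of chromosome 3, and Ly6c1 (chr15:75044018-75048920) lies on the minus strand of chromosome 15. Their upstream sequences are shown because the gate joined these genes. Each is read 5′ to 3′ towards the start of the gene, and capitals mark CACCC or its reverse complement GGGTG, the core of motifs bound by KLF factors.
S100a6 (chr3:90612644-90612893, plus strand): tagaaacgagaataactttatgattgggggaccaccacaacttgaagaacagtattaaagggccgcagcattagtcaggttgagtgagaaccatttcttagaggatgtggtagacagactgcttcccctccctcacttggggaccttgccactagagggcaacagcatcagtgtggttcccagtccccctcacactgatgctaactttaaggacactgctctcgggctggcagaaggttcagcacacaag
S100a4 (chr3:90603520-90603769, plus strand): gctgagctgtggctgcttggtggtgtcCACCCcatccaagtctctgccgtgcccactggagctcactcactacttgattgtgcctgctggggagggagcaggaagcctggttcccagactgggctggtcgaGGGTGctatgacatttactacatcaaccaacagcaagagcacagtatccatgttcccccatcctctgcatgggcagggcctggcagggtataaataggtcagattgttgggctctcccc
Ly6c1 (chr15:75048921-75049087, minus strand): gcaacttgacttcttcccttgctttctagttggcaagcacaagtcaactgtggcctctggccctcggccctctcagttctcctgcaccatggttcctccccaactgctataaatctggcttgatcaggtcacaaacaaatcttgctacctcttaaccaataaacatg
CACCC on either strand occurred 2 times upstream of S100a4 and in neither of the other windows. It was present in 52.0% of all RefSeq windows of 250 bases and in 38.4% of windows of 167 bases, the length of the Ly6c1 window. GCGTG on either strand, the core of the AHR response element, occurred in none of the 3 and in 28.2% of windows of 250 bases and 18.4% of windows of 167 bases. The motifs do not overlap, and these counts describe letters, not binding.

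The gate selected mainly cells with S100 transcripts. S100a6 was detected in 126 of the 150 gated cells, S100a4 in 85 and Ly6c1 in 50, and all 3 in 12. S100a6 plus S100a4 exceeded Ly6c1 in 121 cells, Ly6c1 exceeded the S100 sum in 26, and 12 cells passed on Ly6c1 alone. The summed count had a median of 5 and a highest value of 25. At the threshold, 39 cells held exactly 3 UMIs of these genes and 46 cells just outside it held 2, with median library sizes of 5537 and 5099.5 UMIs. Only 1 gated cell lay within 0.5 of an antibody threshold, against 34 of the other double negatives.

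**Figure D1:**
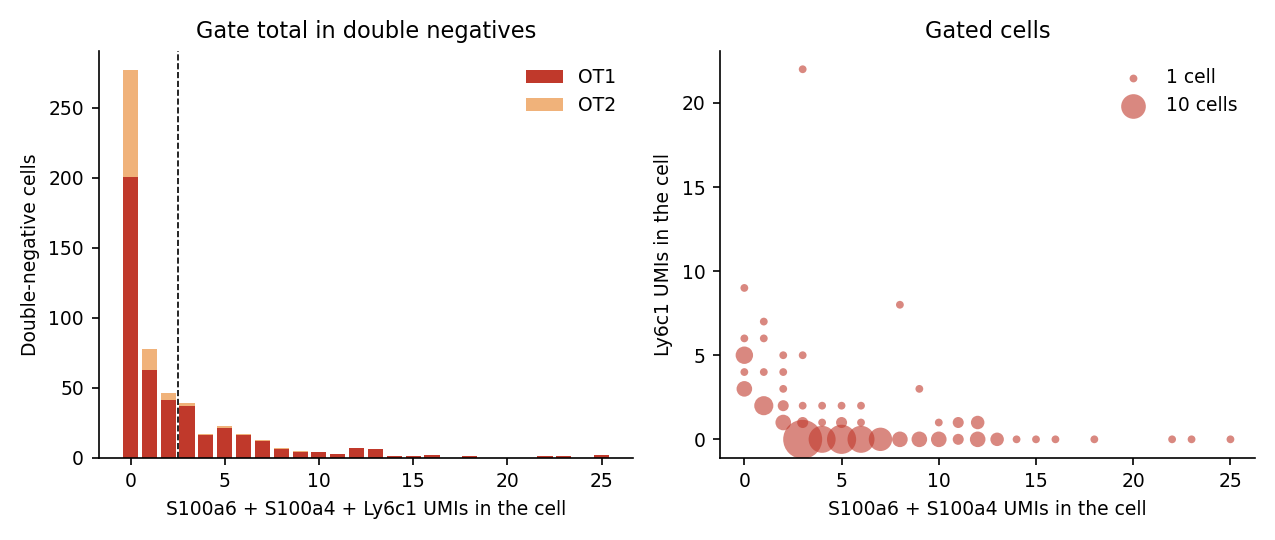
Left, number of double-negative cells (y axis) by their summed S100a6, S100a4 and Ly6c1 UMIs (x axis), stacked by receptor, with the threshold of 3 UMIs as a dashed line. Right, the gated cells by their S100a6 plus S100a4 UMIs (x axis) and Ly6c1 UMIs (y axis), with circle area proportional to the number of cells: most of the 150 cells lie along the x axis, and 12 lie on the y axis.

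The gate counts raw UMIs, so depth can bear on it. Gated cells had a median of 6371 RNA UMIs and other double negatives 4733, but of 51 double negatives over the 95th UMI percentile of their mouse 7 passed. RNA totals ran from 113843 to 588614 UMIs per OT1 mouse in gated cells, from 504426 to 782629 in other double negatives and from 201760 to 956929 in CD8 single positives. The gate found little outside the double negatives. It passed 150 of 551 double negatives (27.2%, exact 95% interval 23.5 to 31.1), 4 of 283 CD8 single positives (1.41%, 0.386 to 3.58), 10 of 310 CD4 single positives (3.23%, 1.56 to 5.85) and 0 of 187 double positives (exact upper limit 1.95%). Their median depths were 5230, 5184, 3190.5 and 2445 UMIs in turn. With every cell thinned to 2000 UMIs and a gate of 2 UMIs the shares were 16.2% of double negatives, 1.56% of CD8 single positives, 3.21% of CD4 single positives and 0 of the double positives (exact upper limit 3.0%). Thinning left out 21, 26, 30 and 66 shallower cells of these classes. Intervals and limits on shares and counts here cover counting error only.

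Gated cells were more frequent among OT1 than among OT2 double negatives. They made up 47 of 140 double negatives in the OT1 NegSelected mouse (33.6%, exact 95% interval 25.8 to 42.0), 15 of 83 in the OT1 PosSelected mouse (18.1%, 10.5 to 28.0) and 79 of 223 in the OT1 NoSelection mouse (35.4%, 29.2 to 42.1). In OT2 mice they made up 2 of 31 (6.45%, 0.791 to 21.4), 2 of 23 (8.70%, 1.07 to 28.0) and 5 of 51 (9.80%, 3.26 to 21.4) in the NegSelected, PosSelected and NoSelection hosts. The means were 29.0% ± 9.53 in OT1 and 8.32% ± 1.71 in OT2 (SD, n = 3 each), a difference of 20.7 percentage points, and every OT1 mouse lay above every OT2 mouse. The two-sided exact permutation p was 0.1, the smallest that 3 mice against 3 can give. The gap was 11.5 points after thinning to 2000 UMIs with a gate of 2 UMIs, and 5.63 points, with overlapping groups and an exact permutation p of 0.3, with the gate of 3 UMIs kept. Of all sorted cells of a mouse, gated cells were 23%, 5.32% and 25.8% in the OT1 NegSelected, PosSelected and NoSelection mice and 1.13%, 0.787% and 4.63% in the OT2 mice of the same hosts. Xist, which is transcribed in female cells, was at 0 to 10.2 CPM in gated cells of OT1 mice and at 245 to 727 CPM in those of OT2 mice. The labels give every sample as female, and Ddx3y, a gene of the Y chromosome, was at 0 CPM in gated cells of the 3 OT1 mice. Donor sex was not tested, and whatever differs with Xist cannot be told apart from the receptor.

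**Figure D2:**
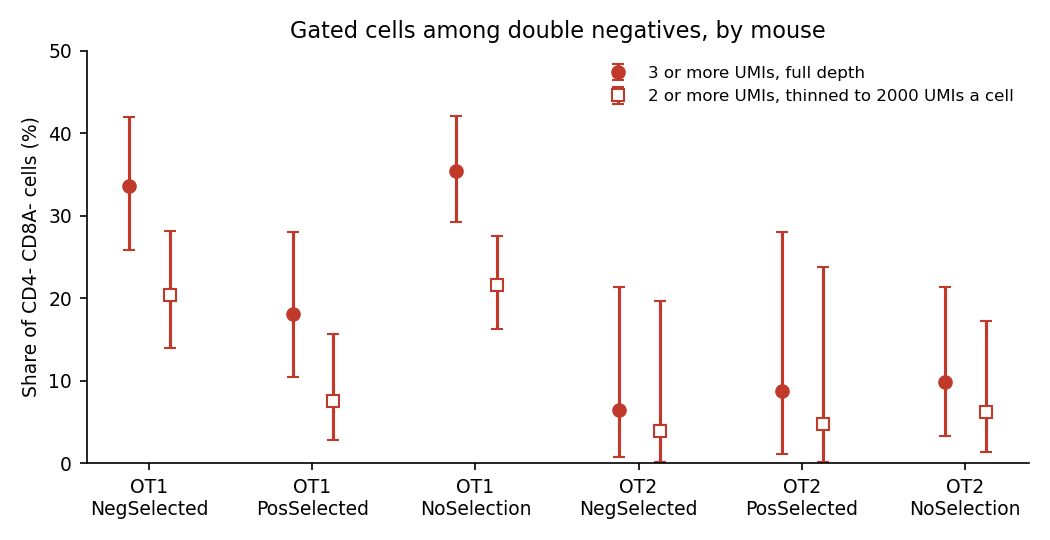
Share of double-negative cells that passed the gate (y axis, percent) in each mouse (x axis), with exact 95% intervals. Filled circles are at full depth with at least 3 UMIs and open squares after thinning to 2000 UMIs with at least 2 UMIs: the OT1 mice lie at 18.1% to 35.4% and the OT2 mice at 6.45% to 9.80% at full depth.

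OT2 mice held 9 gated cells in all, too few for a fit, so the comparisons across genes used the 3 OT1 mice with 141 gated cells, 305 other double negatives and 224 CD8 single positives. Counts were summed per mouse and class and are given as CPM, the UMIs of a gene scaled to a common total per sum. Triplets of values stand for the NegSelected, PosSelected and NoSelection mouse. The label given to these cells names Ly6c1, S100a6, S100a4, Ahr and S1pr1 as markers. The first 3 were part of the rule and the others were named with these data known, so their values are a description. S100a6 was at 578, 228 and 598 CPM in gated cells and at 47.1, 25.8 and 48.6 CPM in other double negatives. S100a4 was at 215, 246 and 214 CPM in gated cells and at 9.42, 13.9 and 8.94 CPM in other double negatives. Ly6c1 was at 125, 167 and 160 CPM in gated cells and at 22, 11.9 and 30.7 CPM in other double negatives. Ly6c1 and Ly6c2 are close paralogs whose reads can be split by the counting.

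S1pr1 was at 131, 158 and 114 CPM in gated cells and at 59.6, 65.4 and 75.4 CPM in other double negatives, without overlap. It was detected in 72 of 141 gated cells and 72 of 305 other double negatives, and after thinning in 26.2% and 17.7%. Ahr, a ligand-activated transcription factor, was at 80.5, 8.78 and 27.2 CPM in gated cells and at 26.7, 5.95 and 11.5 CPM in other double negatives, and 26 of 141 gated cells held a UMI. The surface antibody for Ly6C separated the classes little: its median scaled log2 value was 3.85, 4.19 and 4.03 in gated cells and 3.71, 3.88 and 3.92 in other double negatives. Since Ly6c1 was detected in 50 of 150 cells and its antibody separated the classes little, the population is called the gated cells here.

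Relative to other double negatives, 7 of 18 genes of a maturation and egress list, 6 of 14 cytoskeleton and effector-type genes and 4 of 8 S100 partners outside the gate rose in the gated cells. Of 14 cell cycle genes 5 fell, and none of the 14 passed the test without the NegSelected mouse. Without the largest cells 8 of the 14 could be tested, Mcm5 and Birc5 not among them, and none passed. With edgeR's quasi-likelihood test and mouse as a block, 96 of 6880 genes (1.40%) passed a Benjamini-Hochberg adjusted p of 0.05, 59 of them higher (0.858%) and 37 lower (0.538%), and 818 were below 0.05 before adjustment. The 3 gate genes were left out of the test. DESeq2 called 36, 26 higher and 10 lower, and all 96 genes kept their direction there. Without the NegSelected mouse 22 genes were called, without the PosSelected mouse 168 and without the NoSelection mouse 312.

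Of 18 tested genes of the maturation and egress list, 7 rose and none fell, and all 18 estimates were above 0 (median log2 fold change 0.57, against 0.0029 over all genes). The list includes Cd69, whose estimate of 0.83 did not pass. Itgb7, the beta 7 integrin chain, was at 384, 343 and 350 CPM in gated cells and at 155, 157 and 161 CPM in other double negatives. This log2 fold change of 1.25 (SE 0.15, adjusted p = 0.000247) was called under 13 other settings of scaling, filter, gate, depth or left-out mouse, and not without cells holding 5 or more cell cycle UMIs (0.73, adjusted p = 0.645). Klf2 was at 635, 632 and 515 CPM in gated cells and at 348, 280 and 350 CPM in other double negatives (log2 fold change 0.89, adjusted p = 0.00201). Gated cells lay above the others in every mouse for both genes. Ms4a6b and Ms4a4b, membrane proteins of mature T cells, rose by 0.99 and 0.72 on the log2 scale, and Cd52 and Tmsb10 by 0.57 and 0.32. Ccr7, the receptor that guides mature thymocytes to the medulla, did not pass (137, 105 and 195 CPM in gated cells and 146, 101 and 138 CPM in other double negatives, adjusted p = 0.635). Thinning left 1 of the 18 called, removing cells over the 95th UMI percentile 3, and leaving out the NegSelected mouse 4. The PosSelected mouse held 6 gated cells after thinning and left the thinned fits here and below.

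Of 8 tested S100 and calcium-binding partners, 4 rose and none fell (median 0.74). S100a10, which binds annexin A2, was at 1230, 1260 and 883 CPM in gated cells and at 672, 440 and 528 CPM in other double negatives (log2 fold change 1.07, SE 0.13, adjusted p = 0.000247). S100a11 was at 459, 483 and 433 CPM in gated cells and at 250, 180 and 226 CPM in other double negatives (1.10, SE 0.15, adjusted p = 0.000641). Both lay higher in gated cells of every mouse, and both were called under the same 13 settings. Without cells holding 5 or more cell cycle UMIs their estimates were 0.83 and 0.99 and neither was called (adjusted p = 0.354 and 0.375). Anxa2 and Anxa6, membrane-binding annexins, rose by 0.70 and 0.89 on the log2 scale. S100a13, an S100 gene that passed the low-count filter but not the test, had an estimate of 0.36. Without the NegSelected mouse 2 of the 8 were called, and after thinning 2 of 6.

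Of 14 tested cytoskeleton and effector-type genes, 6 rose and none fell (median 0.58, all 14 above 0). Lgals1, which encodes galectin 1, was at 1450, 1350 and 1240 CPM in gated cells and at 1050, 726 and 454 CPM in other double negatives (log2 fold change 1.00, adjusted p = 0.000641). Vim, the intermediate filament vimentin, was at 1230, 975 and 824 CPM in gated cells and at 595, 638 and 415 CPM in other double negatives (0.96, adjusted p = 0.000247). Gated cells lay above the other double negatives in each mouse for both. Crip1, a LIM-domain protein, rose by 0.54, Emp3 by 0.80, the calponin gene Cnn2 by 0.57 and Rasgrp2, an activator of Rap1 and integrins, by 0.84. After thinning 1 of 12 was called, with antibody thresholds 0.5 lower 2 of 14, and without cells over the 95th UMI percentile 4 of 14, Emp3 and Cnn2 not among them.

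**Figure D3:**
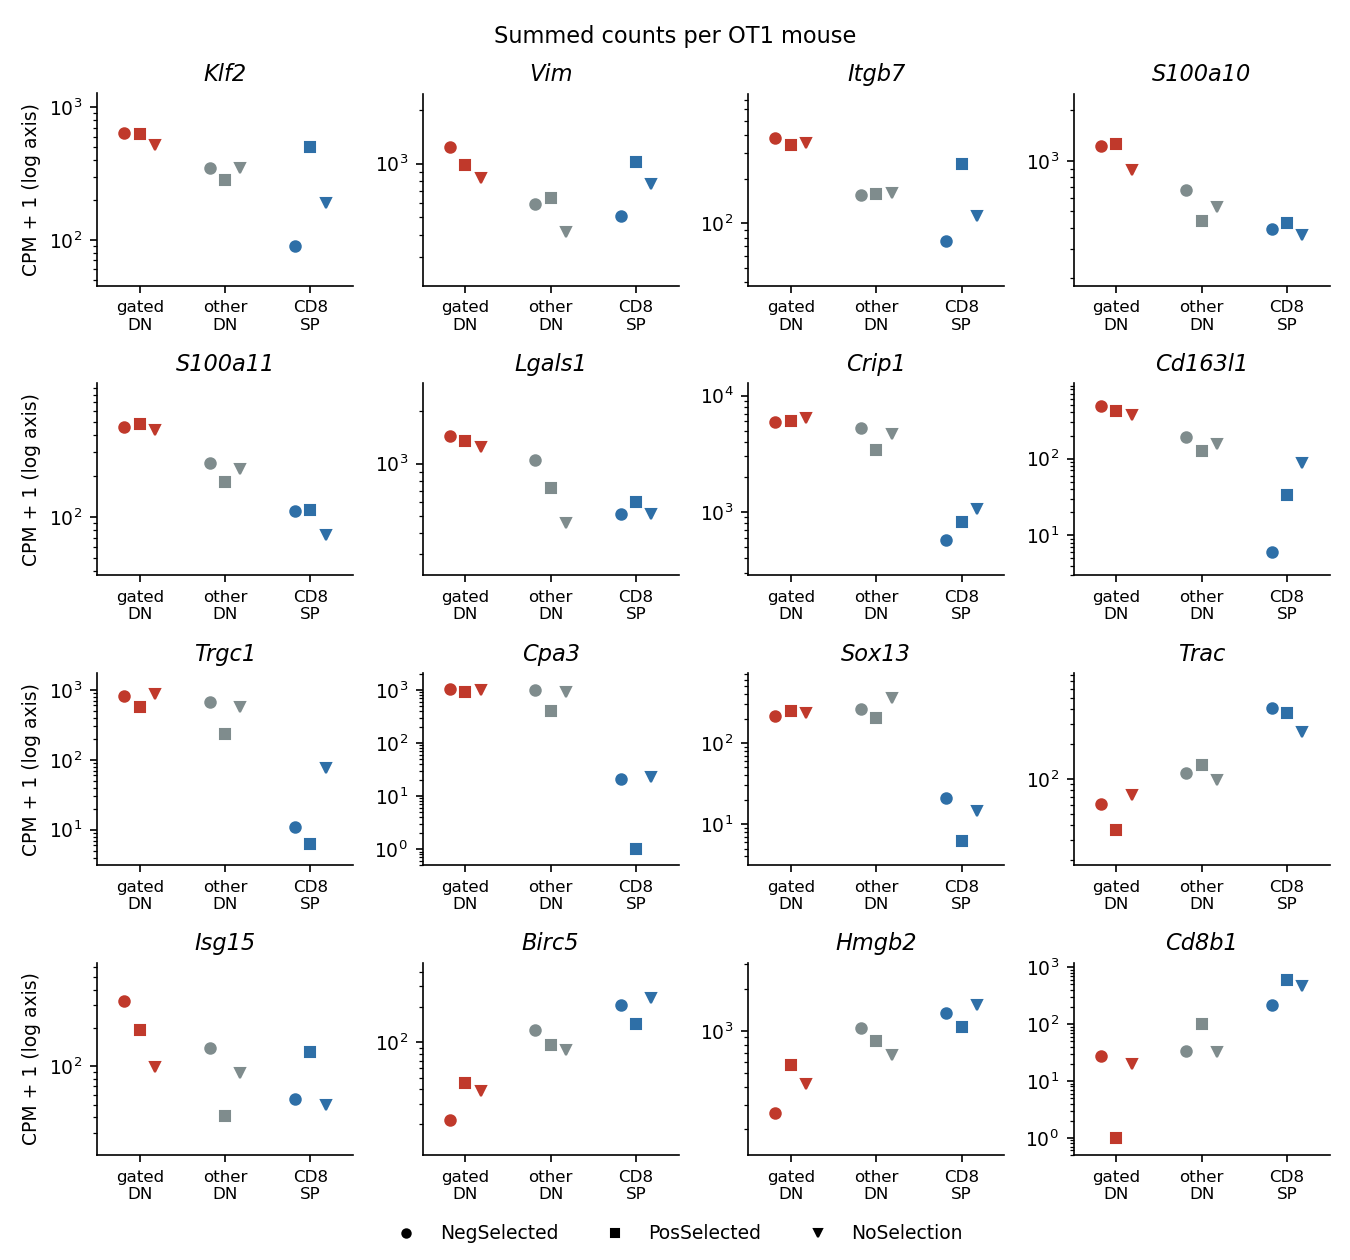
CPM plus 1 on a log y axis for 16 genes in gated double negatives, other double negatives and CD8 single positives (x axis); each point is 1 OT1 mouse, its shape the host. Itgb7, S100a10 and S100a11 do not overlap between gated and other double negatives, and Trgc1, Cpa3 and Sox13 separate both double-negative classes from CD8 single positives.

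Among single genes by fold, Cd163l1, a scavenger receptor of gamma delta T cells (also called SCART1), was at 480, 413 and 370 CPM in gated cells and at 191, 123 and 153 CPM in other double negatives (log2 fold change 1.46, SE 0.15, adjusted p = 9.8e-05). Ly6a, which encodes SCA1, was at 140, 184 and 129 CPM in gated cells and at 102, 25.8 and 54.9 CPM in other double negatives (1.24, adjusted p = 0.0272). Each was higher in gated cells in all 3 mice. Plac8 rose by 1.08, Alox5ap, the activating protein of leukotriene synthesis, by 1.11, Rasa3, a GTPase-activating protein for Ras and Rap, by 1.10, Samhd1, a dNTP hydrolase, by 1.18 and Prr13 by 1.21. Cd163l1 and Plac8 were not called under 1 of 13 other settings, Rasa3 under 3, Ly6a, Alox5ap and Samhd1 under 4, and Prr13 under 5 of 12. Without cells holding 5 or more cell cycle UMIs none of these genes was called, with Ly6a at 0.077 and Samhd1 at -0.069. B2m, the light chain of MHC class I, was at 1400, 1120 and 1010 CPM in gated cells, against 739, 636 and 850 CPM in other double negatives. It was the 1 of 12 tested MHC class I genes that passed, and 11 of the 12 estimates were above 0. No gene of this list was called by edgeR without the NegSelected mouse, and 3 were without the PosSelected or the NoSelection mouse. The counts are from donor cells, and with 1 mouse per host a part of the host in them was not tested. Igfbp4 was at 2260, 2230 and 1870 CPM in gated cells and at 1390, 726 and 1300 CPM in other double negatives (0.97, adjusted p = 0.00138).

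In smaller lists, Ly6a and Ly6e were the called members of 3 tested Ly6 family genes, and Nkg7 and Ctsw of 4 tested innate effector genes. Selplg, which encodes PSGL-1, was the called member of 12 tested integrins and adhesion genes. These 5 genes rose. Gzma, of the innate effector list, was not called and averaged 1030 CPM in gated cells and 1160 CPM in other double negatives. It was detected in 48.2% of gated cells and 55.7% of other double negatives of OT1 mice. Nr4a1 was the 1 of 10 tested receptor-induced genes that passed, at 110, 0 and 32.3 CPM in gated cells and 20.4, 13.9 and 2.56 CPM in other double negatives, and the classes overlapped. By edgeR no gene was called among 14 lineage transcription factors, 13 cytokine receptors, 15 receptor complex genes, 10 preselection genes, 5 survival genes, 4 chemokine receptors and 3 Ahr pathway genes. Before adjustment 3, 1, 5, 4, 3, 2 and 0 of them were below 0.05, and DESeq2 called none. Il7r, the interleukin 7 receptor chain, had an estimate of 0.84 and did not pass (95.4, 141 and 104 CPM in gated cells and 39.2, 73.4 and 77.9 CPM in other double negatives, adjusted p = 0.0874).

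All 14 cell cycle genes had estimates below 0 (median -1.05), and 5 of them fell: Mcm5, Birc5, Ccnb2, Hmgb2 and Tubb5. Birc5, which encodes survivin, was at 20.9, 43.9 and 37.4 CPM in gated cells and at 126, 93.2 and 84.3 CPM in other double negatives (log2 fold change -1.54, SE 0.28, adjusted p = 0.00916). Hmgb2, a chromatin protein of dividing cells, was at 262, 571 and 420 CPM in gated cells and at 1050, 847 and 676 CPM in other double negatives. Neither gene overlapped between the classes. Ube2c, an anaphase ubiquitin-conjugating enzyme, and Tuba1b fell by 1.57 and 1.28 on the log2 scale, and Galk1, Lmnb1, Nme1, Cks1b, Hspd1, Alyref and Srsf2 by 0.92 to 1.15. Cks1b was not called under 7 of 12 other settings, and Galk1 and Nme1 each under 6 of 12. Without cells holding 2 or more UMIs of 5 mitotic genes, Tuba1b and the genes from Galk1 to Srsf2 had estimates of -0.609 to -0.146. None of them was called by edgeR there. Without cells over the 95th UMI percentile of their mouse, of which 7 were gated and 44 were not, none of 8 tested cell cycle genes passed by the edgeR test, 3 of the 8 estimates were above 0, and the estimate for Hmgb2 was 0.02. Without the NegSelected mouse none of the 14 passed, without the PosSelected mouse 9 and without the NoSelection mouse 13. The share of cells with at least 5 cell cycle UMIs after thinning was 10.6%, 26.7% and 21.5% in gated cells and 25.6%, 21.5% and 23% in other double negatives, so the classes overlapped by that measure.

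**Figure D4:**
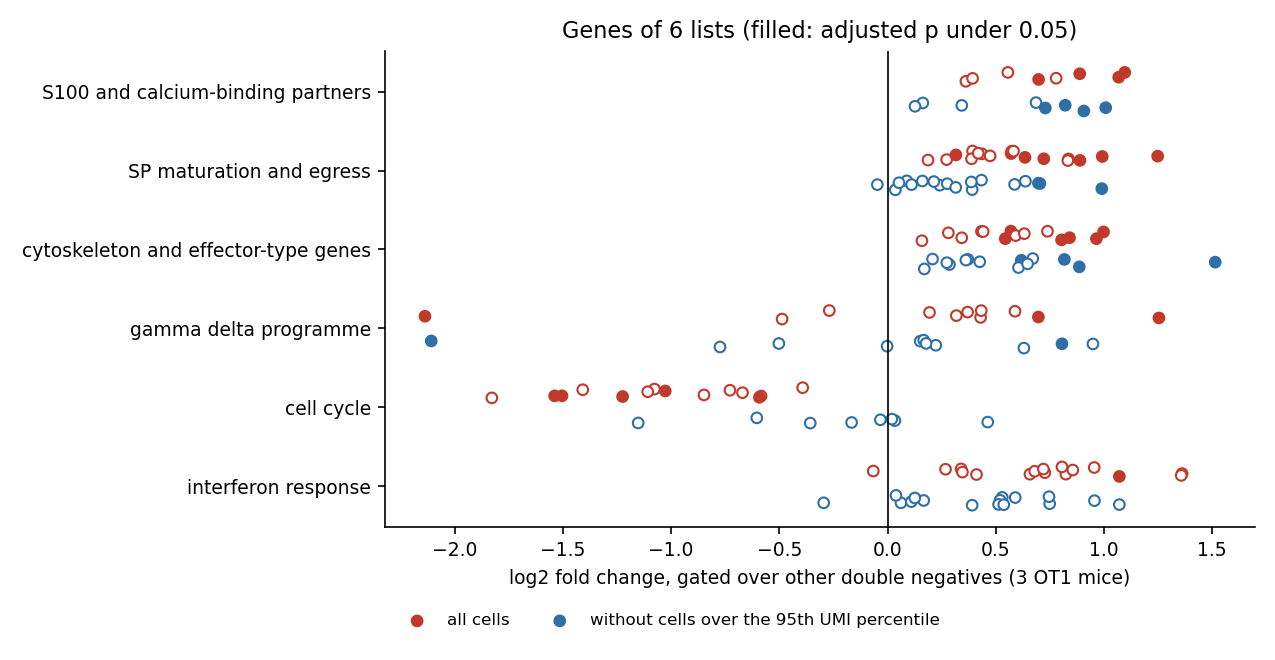
Fitted log2 fold change of gated over other double negatives (x axis) for each tested gene of 6 lists (y axis), with all cells in red and without cells over the 95th UMI percentile of their mouse in blue; filled points passed an adjusted p of 0.05. The 14 cell cycle genes lie below 0 with all cells (median -1.05). Without the largest cells 8 of them were tested, from -1.152 (Mki67) to 0.463 (Mcm6) with a median of -0.10, so the 2 medians cover different genes. The 8 S100 partners were tested both times and stay at a median of 0.71.

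Leaving out all cells with at least 5 cell cycle UMIs left 0 genes called by edgeR, with 229 of 3056 below 0.05 before adjustment. Of the 96 genes called with all cells 74 were tested there, and 67 of them kept their direction. This subset was chosen after the data were seen. It kept 13 gated cells of the NegSelected mouse and 32 of the NoSelection mouse but none of the PosSelected mouse, which therefore left the fit.

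The gamma delta programme was present in the gated cells and was largely shared with the other double negatives. At least 1 UMI of Trgc1, Trgc2 or Trgc4, the constant regions of the gamma chain, was found in 138 of 141 gated cells of OT1 mice (97.9%, exact 95% interval 93.9 to 99.6; median depth 6366 UMIs) and in 234 of 305 other double negatives (76.7%, 71.6 to 81.3; 4727 UMIs). The share was 23 of 224 (10.3%, 6.62 to 15; 5783.5 UMIs) in CD8 single positives and 0 of 47 in double positives. After thinning to 2000 UMIs it was 86.5%, 66.3%, 5.24% and 0 in the same classes. Of 11 tested genes of the list, Trgc1 and Ctla2a rose against other double negatives and 1 gene fell. With antibody thresholds 0.5 lower neither rose by edgeR, and without cells over the 95th UMI percentile Ctla2a was not called. Trgc1 was at 814, 562 and 868 CPM in gated cells and at 678, 230 and 565 CPM in other double negatives (log2 fold change 0.70, adjusted p = 0.0197). The lineage regulators Sox13 and Maf had estimates of -0.27 and -0.49 and did not pass, nor did Trdc (0.19).

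The gated cells also carried transcripts of the transgenic receptor. Trbv12-1, a Vb5 segment, was detected in 140 of 141 gated cells of OT1 mice, in 295 of 305 other double negatives and in 214 of 224 CD8 single positives. Trac, the constant region of the alpha chain, was detected in 40 of 141 gated cells (28.4%, exact 95% interval 21.1 to 36.6), in 127 of 305 other double negatives (41.6%, 36.0 to 47.4) and in 177 of 224 CD8 single positives (79.0%, 73.1 to 84.2). Among gamma variable segments Trgv1 was seen in 63 of 141 gated cells (44.7%), 97 of 305 other double negatives (31.8%) and 4 of 224 CD8 single positives, and after thinning in 19.1% of gated cells and 19.4% of other double negatives. Trgv2 was seen in 8 gated cells and Trgv4 in 6, and Trdv1 in none of 141, which allows up to 2.58% of cells with a UMI by the exact interval and does not limit the share that express it. Segments were selected after their values were seen. The antibody against the gamma delta receptor had median scaled values of 3.90, 3.98 and 3.70 in gated cells, 3.92, 3.69 and 3.81 in other double negatives and 4.16, 3.83 and 3.99 in CD8 single positives, so it did not separate the classes.

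Against CD8 single positives of the same mice the gated cells differed in many more genes. Of 5498 genes 597 were called by edgeR (10.9%), 307 higher (5.58%) and 290 lower (5.27%), and without the NoSelection mouse 327. All 10 tested genes of the gamma delta list rose, with a median log2 fold change of 4.92, against -0.013 over all genes. Cpa3, carboxypeptidase A3, was at 1030, 914 and 994 CPM in gated cells and at 19.8, 0 and 21.6 CPM in CD8 single positives (6.75, SE 0.47, adjusted p = 6e-06). Sox13 was at 212, 246 and 231 CPM in gated cells and at 19.8, 5.23 and 13.5 CPM in CD8 single positives (4.52, adjusted p = 1.63e-05). Blk, a Src family kinase, was at 212, 255 and 343 CPM in gated cells and at 9.91, 9.41 and 5.39 CPM in CD8 single positives (5.01, adjusted p = 4.58e-06). Gated cells lay above CD8 single positives for these 3 genes in every mouse, without overlap. Maf and Etv5 rose by 4.99 and 4.61 on the log2 scale, Trgc2 by 5.57 and Trdc by 1.39.

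Of the maturation list 3 of 18 rose against CD8 single positives, among them Klf2 (1.40) and Itgb7 (1.41), against 1 without the NoSelection mouse and 7 without the PosSelected mouse. CD8 single positives of the 3 hosts were spread for these genes; Klf2 was at 635, 632 and 515 CPM in gated cells and at 89.2, 497 and 189 CPM in CD8 single positives. Of 15 genes of the receptor complex and its proximal signalling, 7 fell and none rose: Cd3d, Lck, Cd6, Ptprc, Trac, Trbc1 and Trbc2. Trac was at 59.6, 35.1 and 71.4 CPM in gated cells and at 411, 369 and 256 CPM in CD8 single positives (-2.39, adjusted p = 0.000128). Satb1, a chromatin organiser of thymocytes, fell by 2.52, and Cd5, an inhibitory coreceptor whose level follows receptor signalling, by 2.10. Lef1 fell by 1.33 and Ikzf3, which encodes Aiolos, by 3.78. Of 10 tested preselection genes Satb1 was the 1 that fell, while 3 rose, Dntt, Arpp21 and Kit. Dntt averaged 322 CPM in gated cells and 167 CPM in CD8 single positives, and Arpp21 196 and 94.6 CPM. Of 14 cell cycle genes 13 fell (median -1.73). Without cells over the 95th UMI percentile of their mouse 13 of 14 fell (median -2.32), and with 1 mouse left out 9 to 14 fell. Without cells holding 2 or more UMIs of 5 mitotic genes 4 could be tested and none was called by edgeR (median 0.03). Those 5 genes belong to the same list, so this exclusion acts on the list itself and cannot test it. Of 15 tested interferon response genes 6 rose, among them Irf7 (1.72) and Usp18 (2.18). Runx3, Gata3, Tox2, Klf3 and Klf6 rose and Id3, Lef1, Bach2 and Ikzf3 fell among 15 lineage transcription factors.

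Few surface proteins differed between gated and other double negatives by the test. Of 114 antibodies 1 was called by edgeR (0.877%), and 14 were below 0.05 before adjustment. No antibody was called by edgeR with any 1 mouse left out (6 to 8 were below 0.05 before adjustment), and DESeq2 called 8 with all 3 mice. CD49d, the alpha 4 integrin, had an estimate of 0.59 and CD5 of 0.23, neither past the threshold (adjusted p = 0.0703 for each). The antibody for the product of Itgb7 had an estimate of 0.32 and was not called by edgeR (adjusted p = 0.552). Its median scaled values were 6.97, 7.17 and 7.05 in gated cells and 6.54, 5.80 and 6.60 in other double negatives. By CPM it was lower in gated cells of the NegSelected mouse (30200 against 36100). The 9 isotype controls had median scaled values of 0 to 3.17 across these classes.

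Against CD8 single positives 12 of 113 antibodies were called (10.6%), 7 higher and 5 lower. This fit was added after the data were seen. SCA1 had median scaled values of 3.22, 2.85 and 2.92 in gated cells and 1.73, 1.96 and 1.88 in CD8 single positives (log2 fold change 2.13, SE 0.15, adjusted p = 0.00138). The classes did not overlap, but all SCA1 medians except that of gated cells in the NegSelected mouse lay within the range of the isotype controls. CD49d, KIT, CD48, CD61 (the beta 3 integrin) and CD31 rose by 1.09 to 1.70, and FAS, CD150, NRP1 and CD155 fell by 0.89 to 1.43. CD8B fell by 3.51, which follows from the rule. Without the PosSelected mouse edgeR called no antibody (24 were below 0.05 before adjustment), without the NegSelected mouse it called 25, and DESeq2 called 27 with all 3 mice.

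To describe how gated cells varied, counts were pooled over mice for cells in which Ly6c1 led the gate (26 cells) and cells in which S100a6 plus S100a4 led (121 cells), a division by the rule's own genes that gets no test. Intervals are exact Poisson intervals. Isg15 was at 496 CPM (389 to 623) in Ly6c1-led and at 141 CPM (118 to 167) in S100-led cells, and Ly6a at 387 CPM (293 to 501) and 84.4 CPM (66.8 to 105). S1pr1 was at 217 CPM (149 to 307) in Ly6c1-led and 111 CPM (90.8 to 135) in S100-led cells, and Ms4a4b at 686 CPM (559 to 833) and 380 CPM (342 to 422). In the other direction Cpa3 was at 312 CPM (229 to 417) in Ly6c1-led and at 1080 CPM (1010 to 1150) in S100-led cells, Ctla2a at 67.9 CPM (32.6 to 125) and 315 CPM (280 to 353), and Igfbp4 at 1070 CPM (906 to 1250) and 2080 CPM (1990 to 2170). Trdc overlapped between them, at 951 CPM (800 to 1120) and 1010 CPM (942 to 1070). Cells of different mice entered these sums, so the intervals leave out the spread between mice, which for Isg15 ran from 98.5 to 322 CPM in gated cells of OT1 mice, and whether the values differ beyond it was not tested.

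**Figure D5:**
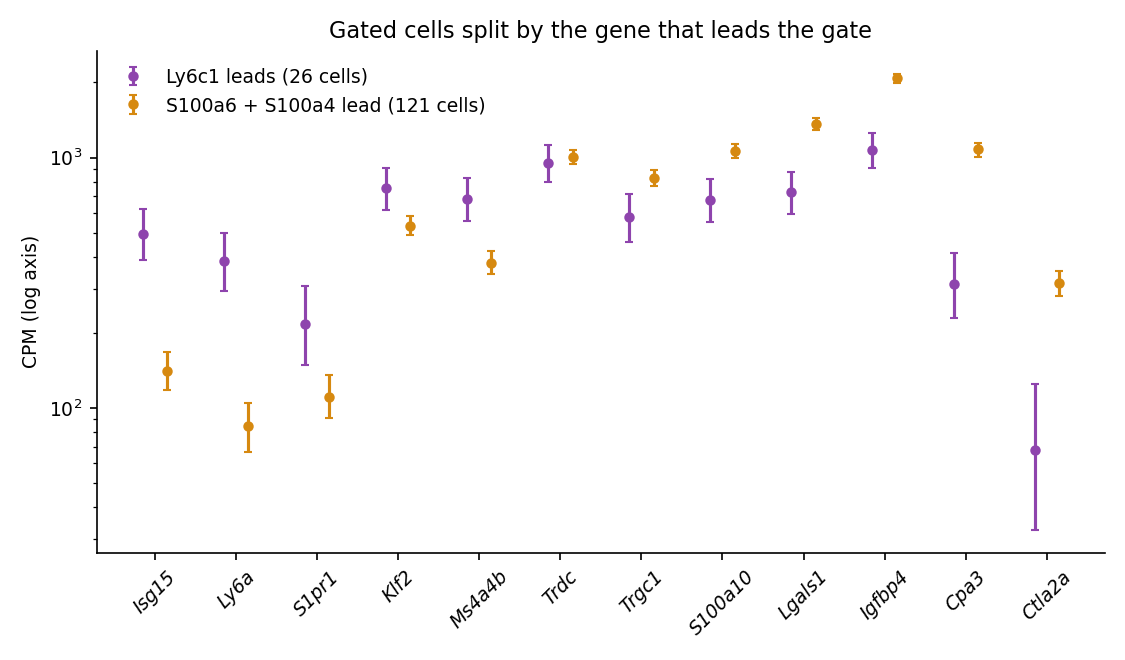
CPM on a log y axis with exact Poisson 95% intervals for 12 genes (x axis) in gated cells led by Ly6c1 (26 cells) and by S100a6 plus S100a4 (121 cells), pooled over mice. Isg15, Ly6a, S1pr1, Klf2 and Ms4a4b are higher where Ly6c1 leads, Trdc overlaps, and Igfbp4, Cpa3 and Ctla2a are lower.

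Between hosts, gated cells of 1 OT1 mouse were set against those of another, with no test because each host is 1 mouse. A gene was counted where the 95% interval of its ratio lay beyond 2-fold. This held for 4 of 4025 genes for PosSelected over NoSelection (0.0994%), for 3 of 2539 for NegSelected over PosSelected (0.118%) and for 23 of 4924 for NegSelected over NoSelection (0.467%). After thinning to 2000 UMIs none was left for the last. The 4 genes counted as higher in the NegSelected than in the NoSelection mouse all belong to the interferon list of 16 genes. Ifi27l2a was at 253 CPM in the NegSelected and 40.8 CPM in the NoSelection mouse (ratio 6.21, interval 3.91 to 10.2), Isg15 at 322 and 98.5 CPM (3.27, 2.35 to 4.57), Usp18 at 137 and 37.4 CPM (3.67, 2.16 to 6.40) and Isg20 at 107 and 28.9 CPM (3.71, 2.03 to 7.05). The other double negatives had Ifi27l2a at 144 CPM in the NegSelected and 39.6 CPM in the NoSelection mouse, Isg15 at 138 and 88.2 CPM and Usp18 at 67.5 and 62.6 CPM. Relative to other double negatives 1 of 16 interferon genes passed with all 3 mice, Isg15 (1.07, adjusted p = 0.0434), against 10 without the NoSelection mouse, 5 without the PosSelected mouse and none of 15 without the NegSelected mouse.

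Of the 19 genes that were lower in the NegSelected than in the NoSelection mouse, 3 belong to the cell cycle list of 14 (Tyms, Top2a and Rrm2). Others outside that list are genes of DNA replication or mitosis (Smc2, Lig1, Rrm1, Pclaf, Hells and Kif11) or histone genes (H1f5, H1f1, H3c11 and H2ac8). In the NoSelection mouse the UMIs of Rrm2, Hells, Kif11, H1f5, H1f1 and H3c11 each came from 6 of 79 gated cells. H1f5, a linker histone, was at 11.9 CPM in the NegSelected and 255 CPM in the NoSelection mouse (ratio 0.0468, interval 0.0126 to 0.122), with its UMIs in 3 of 47 and 6 of 79 cells. Myo6, a myosin motor, was at 38.7 CPM in the NegSelected and 223 CPM in the NoSelection mouse (0.174, 0.0903 to 0.308). All 36 Ccl5 UMIs of the NoSelection mouse came from 1 cell, while those of the other 18 genes came from 5 to 23 cells. For NegSelected over PosSelected, Gem, an immediate early GTPase gene, was at 328 CPM in the NegSelected and 79.1 CPM in the PosSelected mouse (4.15, 2.11 to 9.31), with UMIs in 20 of 47 and 7 of 15 cells. Egr1 was at 173 CPM in the NegSelected and 8.78 CPM in the PosSelected mouse (19.7, 3.39 to 790) and Nr4a1 at 110 and 0 CPM, but 3 cells held all Egr1 UMIs of the NegSelected mouse and 2 cells all its Nr4a1 UMIs. Both are immediate early genes of receptor signalling. For PosSelected over NoSelection the 4 genes were lower: Top2a, H1f5, H1f1 and Egr1.

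In the OT2 mice the gated cells can only be described. The 5 cells of the OT2 NoSelection mouse had Plac8 at 1040 CPM, against 537 CPM in other double negatives of that mouse, Itgb7 at 121 CPM against 55.9 CPM and Hmgb2 at 412 CPM against 748 CPM. Of the 24 genes named from the OT1 comparison, 9 of 12 higher and 11 of 12 lower genes had the same sign there, but 6 had no UMI in these 5 cells, which allows up to 72.7 CPM. For 4 of those 6, Cd163l1, Ctla2a, Ube2c and Birc5, the other double negatives lay below that limit, so no direction can be read, and Tuba1b and Galk1 lay above it at 146 and 99.3 CPM. Trgc1 was at 287, 123 and 315 CPM in gated cells of the OT2 NegSelected, PosSelected and NoSelection mice and at 259, 298 and 196 CPM in their other double negatives. S1pr1 was detected in 2 of 2, 2 of 2 and 0 of 5 gated cells of these mice.

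Many listed markers of other cell types were at or near 0 in gated cells, but not all. In gated cells and other double negatives of the 3 OT1 mice, Gata3 averaged 217 and 209 CPM and Il7r 113 and 63.5 CPM (NK and ILC list). Cd1d1 (iNKT and MAIT list) averaged 53.6 and 52.3 CPM and Capg (regulatory T cell list) 38.2 and 21.2 CPM. Cd79b, a B cell receptor component, averaged 49.1 CPM in gated cells and 24.8 CPM in other double negatives of the 3 OT1 mice, and Ighm 354 and 335 CPM; their part in the results was not tested. Lyz2 (myeloid) averaged 1.7 CPM in gated cells and 0.853 CPM in other double negatives, Foxp3 (regulatory T cell) 2.93 and 0.427 CPM, Zbtb16 (iNKT and MAIT) 2.69 and 0 CPM, and Tyrobp 11.3 and 0 CPM. In gated cells of OT1 mice Csf1r, Itgam, Adgre1, S100a8 and S100a9 (myeloid), Ms4a1 (B cell) and Hba-a1 and Hbb-bs (erythroid) were at 0. Of the myeloid list 1 gene passed the low-count filter (Cst3), of the B cell list 2 (Cd79b and Ighm), and of the NK and ILC list 2 (Il7r and Gata3); none was called. The summed UMIs of the myeloid list were 44, 16 and 86 in gated cells and 90, 56 and 107 in other double negatives, and Cst3, which many cell types express, was at 131, 141 and 139 CPM in gated cells and 141, 109 and 134 CPM in other double negatives. Rag1 was at 0 in gated cells of all 6 mice. Dntt, also of the preselection list, averaged 322 CPM in gated cells and 428 CPM in other double negatives of the 3 OT1 mice. Cd4 and Cd8a transcripts were found in 1 and 4 of 141 gated cells.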

How the data were processed

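RNA and antibody UMI counts per cell were deposited by the authors without normalization, and hashtags assign cells to mice. Cell Ranger 8.0.1, Seurat and the genome mm10 are named per the submitters' processing notes; the filters on cells and doublets are not given in the sources used here. The receptor sequencing libraries were not analysed here. The labels conflict for the OT2 NoSelection host (MHCII KO in the treatment, B2m KO in a comment); the treatment was used.

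The members, gene lists and alternatives were chosen with earlier results of these data known. Counts were summed per mouse and class where at least 10 cells were present and compared in edgeR 4.0.16 under R 4.3.3, with TMM scaling, filterByExpr, mouse as block and the two-sided quasi-likelihood test, with Benjamini-Hochberg adjustment over all features tested; receptor variable segments were left out of the naming rule. DESeq2 1.42.0, RLE factors, other gates and thresholds, thinning to 2000 UMIs and left-out mice were alternatives. The genes named were, per direction, at most 12 called ones of largest fold that had at least 50 CPM and 1 direction in every mouse, up to 8 antibodies per direction (the 6 with the lowest p where under 3 were called), and 2 to 6 per list. A ratio between hosts needed at least 30 UMIs. On simulated counts for the comparison with other double negatives (6577 genes), 21.9% of log2 changes of 1 and 82.3% of changes of 2 were recovered, with 3 false calls. For CD8 single positives (5166 genes) 24.1% and 96.6% were recovered, with 7 false calls. The simulation gave every gene the same dispersion and no effect of mouse, so its false calls do not measure the error of the real comparisons. Results for a few genes and antibodies are not reported here.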

Additional observations from a re-analysis of the deposited data

Results flagged for a closer look

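In the OT2 NoSelection mouse 2 of the 24 named genes went against the direction seen in all 3 OT1 mice with UMIs in its gated cells; 6 others had none there. S100a11 was at 267 CPM in its 5 gated cells (11 UMIs) and at 338 CPM in its other double negatives, a ratio of 0.788, while it was higher in gated cells of every OT1 mouse. Alyref, an RNA export factor, was at 291 CPM in gated cells and 264 CPM in other double negatives, a ratio of 1.10, while it was lower in every OT1 mouse. The difference between receptors was not tested, since no OT2 mouse had 10 gated cells.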

How the results depend on the processing

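The gate takes raw counts, so depth bears on membership, and 1 mouse per host limits every comparison. Against other double negatives the 96 called genes became 36 with DESeq2, 22 with antibody thresholds 0.5 lower, 221 (90 higher, 131 lower) without the low-count filter, 22 after thinning, 31 without cells over the 95th UMI percentile, 44 without cells holding 2 or more UMIs of 5 mitotic genes, 0 without cells holding 5 or more cell cycle UMIs, where the PosSelected mouse drops out (229 at an unadjusted p under 0.05 by edgeR), and 22 to 312 with 1 mouse left out. After thinning 11 of the 22 were among the 96. The last exclusions of cells and the capped antibody counts were chosen after seeing the data. Against CD8 single positives the 597 genes became 244 with DESeq2, 221 with a gate of 5 UMIs, 128 after thinning, 341 and 96 with the mitotic and cell cycle exclusions, and 327 to 592 with 1 mouse left out. Without the replicate block (the mouse term) 75 and 678 genes and 0 and 18 antibodies were called in these comparisons. The 1 antibody called against other double negatives became 8 with DESeq2 and 0 with RLE factors, capped counts, lower thresholds, 5 cells per sum, a gate of 2 UMIs, no block, thinning, every left-out mouse (0 to 0), or any exclusion of cells, with 5 to 22 antibodies at an unadjusted p under 0.05 by edgeR. The 12 against CD8 single positives became 27 with DESeq2, 0 with a gate of 5 UMIs, thinning or the cell cycle exclusion (28, 16 and 23 at an unadjusted p under 0.05 by edgeR), and 0 to 25 with 1 mouse left out. Of the 96 genes, 70 of 73 tested kept their sign after thinning and 82 of 86 without cells over the 95th UMI percentile. Signs changed for CD27 (-0.016), Ccr7 (-0.07), S100a13 (-0.17) and Trdc (-0.013) after thinning. They changed for CD25 (0.39), Hmgb2 (0.02) and Trdc (-0.002) without cells over the 95th UMI percentile. They also changed for Trdc (-0.14) with a gate of 5 UMIs and for Maf (0.045) without the NoSelection mouse. With the cell cycle exclusion they changed for Trdc (-0.17), S100a13 (-0.20), Il7r (-0.14), Samhd1 (-0.069) and Hmgb2 (0.215). Hmgb2 changed with the mitotic exclusion too (0.498). Of these features Hmgb2 and Samhd1 were called with all cells. Between hosts, thinning left 1 gene for PosSelected over NoSelection and 0 for NegSelected over NoSelection, and removing cells over the 95th UMI percentile left 7 for the second. The receptor difference in share stayed positive, at 17.5 to 26.2 points with 1 mouse left out. Except where a value shows it, the cause was not tested. A test of the receptor by member interaction could not be fitted.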
